A study of Homo sapiens with 12 samples.

Results

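The SLITRK genes encode a family of 6 neuronal membrane proteins, SLITRK1 to SLITRK6. Their members were taken by gene symbol from the transcript counts of 12 cultures, and all 6 were among the 25718 genes listed. The family was chosen by a measured value, the large fall of the SLITRK1 count under doxycycline over both vectors in an earlier look at these data. The doxycycline changes of SLITRK1 are therefore given as a description without a test, whereas the other members and other comparisons were tested. Of several transcripts, that with the most counts on average stood for its gene. The cultures came from the embryonic stem cell line H9, which is an established human line, transduced at a multiplicity of infection of 50 with a lentiviral vector carrying either miR-10a or miR-10b under doxycycline control, together with a GFP reporter. Cells were differentiated for 14 days towards ventral midbrain. By the study's methods, sonic hedgehog and the compound labelled CT were given only in the earlier part, before doxycycline was added, together with SMAD inhibition. The general protocol there dissociated and replated the cells at day 11, in medium that held the growth factors BDNF and GDNF and ascorbic acid. Each vector had 3 cultures given doxycycline from day 11 to harvest on day 14 and 3 control cultures of the same transduced cells that never received it. No culture with a GFP-only vector was analysed here, so doxycycline itself and the microRNA it switches on cannot be told apart, and neither can the vector and any other difference between the transduced cultures. The cultures were not sorted, and nothing in the labels says whether replicates came from separate transductions, so p-values measure the spread between these cultures only.

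SLITRK proteins span the membrane once and carry leucine-rich repeats outside the cell, as the axon guidance proteins of the Slit family do, while most members have tyrosine motifs inside the cell that resemble those of the neurotrophin (Trk) receptors. At synapses they sit mainly on the receiving side and bind receptor tyrosine phosphatases of the LAR type (PTPRD, PTPRS) on the sending neuron, which recruit the presynaptic machinery. In neural progenitors and young neurons, family members are known for effects on neurite outgrowth. MicroRNAs act by pairing of their seed, bases 2 to 8, with sites that lie mostly in the 3′UTR of a messenger RNA, and miR-10a and miR-10b share a seed.

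The mature miR-10a strand from RefSeq (chr17:48579904-48579926, minus strand, GRCh38.p14) is shown because the matches in SLITRK transcripts follow from it. Capitals mark the seed. The 2 SLITRK transcripts with a match of 7 or more bases to the full seed are represented by 1 site each, with the matched bases in capitals.
hsa-miR-10a-5p: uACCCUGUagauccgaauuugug
SLITRK5 8mer: cttttgttgACAGGGTAggtaatata
SLITRK2 7mer-m8: atacagtggACAGGGTctctaccct

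Matches were searched on the sense strand of each member's longest annotated 3′UTR (GRCh37, GENCODE). The motifs were ACAGGGTA (8mer), ACAGGGT (7mer-m8), CAGGGTA (7mer-A1) and CAGGGT (6mer), each site being counted once, under the longest motif. SLITRK1, SLITRK3, SLITRK4 and SLITRK6 held none of them in 3′UTRs of 2212, 1177, 5805 and 1193 bases. SLITRK2 held 1 7mer-m8 (chrX:144910063-144910069, plus strand) in a 3′UTR of 4893 bases. SLITRK5 held 1 8mer (chr13:88337723-88337730, plus strand), 1 7mer-m8, 1 7mer-A1 and 4 6mers in an annotated 3′UTR of 18007 bases. The shorter SLITRK5 model has a 3′UTR of 1351 bases and held none, and the transcript of the deposited counts, at 4446 bases in all, is too short for the long 3′UTR. Among tested genes, 9267 had an annotated 3′UTR (median length 1840 bases). Of these 2.73% held an 8mer, 15.28% a 7mer-m8, 7.49% a 7mer-A1 and 31.93% a 6mer, and 56.11% held no match of any kind. A match of letters is a description and does not show a site in use.

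SLITRK1, SLITRK6 and SLITRK5 follow each other on chromosome 13 (GRCh37 chr13:84451340-84456609, chr13:86366925-86380818 and chr13:88323626-88348527), with gaps of 1.91 and 1.943 Mb that hold 0 annotated protein-coding genes. SLITRK4 (chrX:142710595-142723916) and SLITRK2 (chrX:144899347-144911374) lie on the X chromosome with 3 protein-coding genes between them, and SLITRK3 (chr3:164904508-164914897) stands alone on chromosome 3. The neighbours SLITRK6 and SLITRK5 differed in level and in the direction of their changes below.

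The cultures yielded between 10545487 and 14165426 counts, and every control had a higher total than every doxycycline culture of its vector. Levels are in CPM, counts divided by a culture's total and multiplied by 1e6, and a floor of 3 counts corresponds to 0.212 to 0.284 CPM, a limit that covers counting error only. The vectors behaved as labelled: the MIR10A precursor rose from 0.999 ± 0.363 to 723.7 ± 10.8 CPM with the miR-10a vector, and MIR10B rose from 3.55 ± 0.807 to 2619 ± 67.5 CPM with the miR-10b vector (SD, n = 3 each). Replicate 2 of the miR-10b doxycycline group stood apart, with a chi-square per degree of freedom of 3.17 and 4.11 against the other replicates of its group, compared with 1.22 to 1.93 in the other 10 pairs. The labelled identity of the cells was borne out in part: 8 of 9 progenitor markers passed the count minimum, and LMX1B, a floor plate and ventral midbrain marker, was at 0 in all 12 cultures. The 8 markers of that kind summed to 927 to 947 CPM under doxycycline and 920 to 928 CPM in controls with the miR-10a vector, and to 1253 to 1349 against 1298 to 1304 CPM with the miR-10b vector. Of 6 tested, 1 passed with miR-10b, beside 15.3% of all tested genes. This was the floor plate protease CORIN, which fell from 21.8 ± 1.16 to 12.8 ± 0.820 CPM (edgeR, log2 fold change -0.77, adjusted p = 6.3e-08). Between the controls 4 of the 6 passed, all higher with the miR-10b vector and CORIN among them, beside 14.1% of all tested genes. LMX1B is among the genes with several transcripts, of which the deposited counts appear to hold only reads that fit 1 transcript, so that 0 there does not mean absence. The same limit applies to SLITRK1, SLITRK2 and SLITRK4.

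SLITRK5, whose loss in mice gives obsessive-compulsive-like grooming and which acts in BDNF-TrkB signalling, had the highest level as counted among the 5 members with counts in every culture, with the limit for SLITRK1 and SLITRK4 given above. It had 1206 to 1660 counts, or 24.6 ± 1.99 CPM per kb of transcript (SD over 12 cultures). Of 2 annotated SLITRK5 models, the one with the shorter 3′UTR overlaps 6 annotated exons of MIR4500HG on the opposite strand, and as the counting is not stated to use strand, reads of these genes cannot be told apart there. SLITRK6, known from the developing inner ear and retina, followed with 77 to 142 counts and 2.12 ± 0.299 CPM per kb, so that SLITRK5 was 11.6 times higher per length. SLITRK1, a member studied in Tourette syndrome that lacks the Trk-like tyrosine motifs, had 11 to 65 counts and 0.498 ± 0.244 CPM per kb. SLITRK3, which builds inhibitory synapses through PTPRD, had 6 to 18 counts and 0.226 ± 0.071 CPM per kb, and SLITRK4 had 3 to 8 counts and 0.0518 ± 0.0186 CPM per kb. SLITRK5 was above SLITRK6, SLITRK6 above SLITRK1 and SLITRK3 above SLITRK4 in 12 of 12 cultures, whereas SLITRK1 was above SLITRK3 in 11 of 12, and these 2 did not separate with the miR-10b vector under doxycycline.

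**Figure D1:**
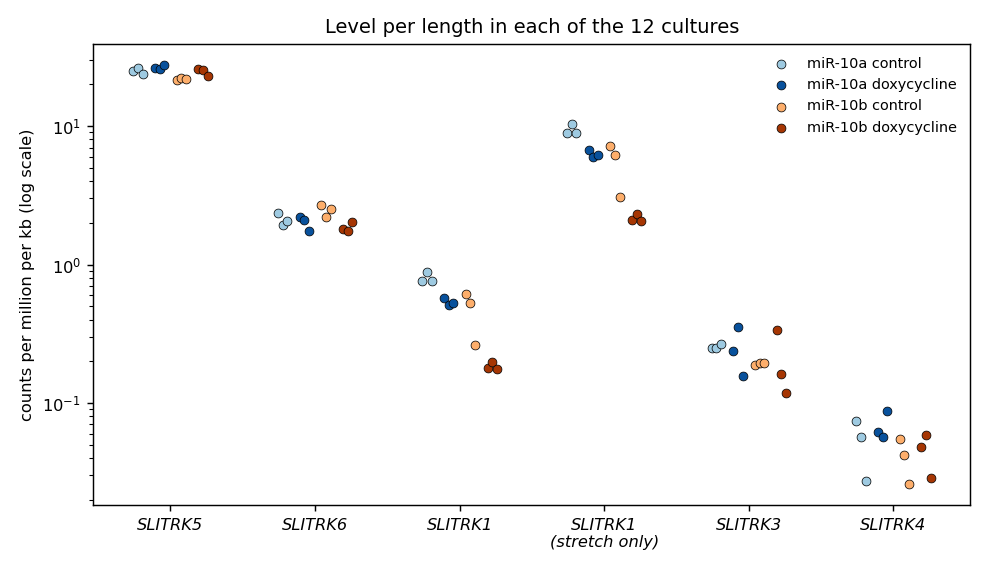
CPM per kb of transcript (log axis) for each of the 12 cultures, coloured by group, with SLITRK1 drawn both over its whole transcript and over the 443-base stretch its counts may come from. SLITRK5 lies near 24.6, SLITRK6 near 2.12 and SLITRK4 near 0.0518, and the place of SLITRK1 in the order depends on the length used.

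The order around SLITRK1 rested on the length taken for it. The deposited counts list 2 SLITRK1 transcripts, of 5189 and 4746 bases, and the shorter was at 0 in all 12 cultures. Their lengths differ by 443 bases, which is the length of the one annotated SLITRK1 intron that lies in the 5′UTR (chr13:84455696-84456138, minus strand). Reads of SLITRK1 that fit only the longer transcript would therefore come from these 443 bases, where 394 start positions hold a whole read of 50 bases, and not from the coding sequence. No annotated exon of another gene overlaps the stretch. Outside it, the annotated model of 5189 bases overlaps 3 exons of an unnamed gene on the opposite strand. As the counting is not stated to use strand, reads of these genes cannot be told apart there. Per kb of the stretch alone, the level of SLITRK1 was 5.83 ± 2.86 CPM (SD over 12 cultures) and above SLITRK6 in 12 of 12 cultures. If so, the SLITRK1 values below would concern RNA that contains this stretch at the 5′ end of the gene. Where its reads lie was not tested.

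SLITRK2, an X-linked member, was at 0 for all 8 of its listed transcripts in all 12 cultures. Where reads shared by transcripts are left out, a gene with 8 of them may have few reads left to count, and this value is no evidence about its level. SLITRK4, also X-linked, was spread over 3 transcripts, with 66 counts over all cultures on the one used here and 29 and 2 on the others. Its place in the order therefore also rested on how reads were assigned.

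SLITRK1 was lower under doxycycline with both vectors. With the miR-10a vector the counts were 33, 32 and 29 in the doxycycline cultures and 49, 65 and 49 in the controls. With the miR-10b vector they were 11, 12 and 11 against 40, 37 and 18. In both vectors every doxycycline culture lay below every control, and the miR-10b control with 18 counts lay closer to the treated cultures than to the other controls. The level fell from 4.15 ± 0.379 to 2.80 ± 0.174 CPM with miR-10a, and from 2.42 ± 0.953 to 0.957 ± 0.0635 CPM with miR-10b (SD, n = 3). The fitted log2 fold changes were -0.58 and -1.33. With 1 culture left out at a time the second ranged from -1.62, without the low miR-10b control, to -1.09, without control replicate 1. These values brought the family up, and nothing is read from the 7.75% and 12.3% of all tested genes that lay wholly below their controls in the same way. SLITRK1 held no seed match in its 3′UTR.

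**Figure D2:**
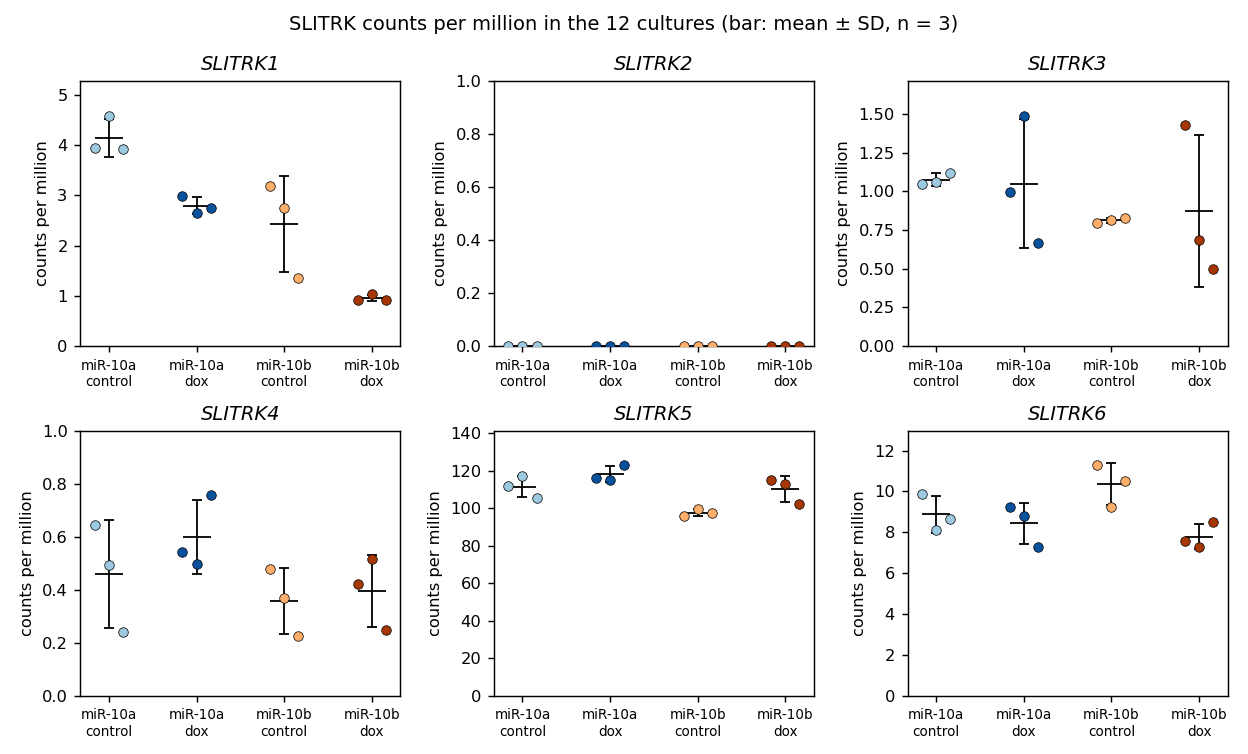
CPM (linear axis from 0) of the 6 SLITRK genes in each culture, by vector and doxycycline (dox), with the mean and SD of 3 cultures as bars. SLITRK1 steps down from 4.15 to 0.957 across the groups, SLITRK5 and SLITRK6 move in opposite directions with the miR-10b vector, and SLITRK2 is at 0 throughout.

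With the miR-10a vector, 0 of the other 5 members passed the test (edgeR quasi-likelihood test, Benjamini-Hochberg adjustment over all 11451 tested genes, threshold 0.05), beside 1.21% of all tested genes. SLITRK2 and SLITRK4 were below the minimum of a mean above 10 counts and could not be fitted. None of the 3 fitted had an unadjusted p under 0.05, and DESeq2 called 0 as well. SLITRK5 was at 118.0 ± 4.26 CPM under doxycycline and 111.5 ± 5.79 CPM without (log2 fold change 0.08 ± 0.05 SE, adjusted p = 0.55). SLITRK6 was at 8.44 ± 1.01 and 8.89 ± 0.906 CPM (-0.07 ± 0.12, adjusted p = 0.91). SLITRK3 was at 1.05 ± 0.416 and 1.08 ± 0.041 CPM, and its interval of the log2 fold change reached from -0.69 to 0.67, so that a change within this range is not excluded.

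With the miR-10b vector, 2 of the other 5 members passed the test, beside 15.3% of all tested genes (8.18% higher, 7.15% lower). They moved in opposite directions, SLITRK5 up and SLITRK6 down. All tested genes split into 937 higher and 819 lower, and with DESeq2 into 498 and 808, but both members kept their direction and call there.

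SLITRK5 was at 115.2, 112.9 and 102.5 CPM in the miR-10b doxycycline cultures and at 95.8, 99.3 and 97.7 CPM in the controls. All treated cultures were above all controls, a separation that 16.3% of all tested genes also showed in this direction. The rise was small, with a log2 fold change of 0.17 (95% confidence interval 0.08 to 0.27, adjusted p = 0.0082), or 1.13-fold. Without replicate 1 of the treated group it did not pass (0.14, adjusted p = 0.068), whereas without replicate 2, the library that stood apart, it did. SLITRK5 is the member whose longest annotated 3′UTR held the 8mer shown above.

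SLITRK6 was at 7.57, 7.29 and 8.48 CPM in the miR-10b doxycycline cultures and at 11.3, 9.26 and 10.5 CPM in the controls. All treated cultures were below all controls, as was the case for 12.3% of all tested genes. The log2 fold change was -0.41 (-0.65 to -0.16, adjusted p = 0.017), or 0.754-fold. This call depended on single cultures: without doxycycline replicate 1 or 2, or without control replicate 1 or 3, the adjusted p lay between 0.057 and 0.086. Without replicate 2, the library that stood apart, the log2 fold change was -0.36 (adjusted p = 0.063). SLITRK6 held no seed match.

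SLITRK3 had 17, 8 and 6 counts in the miR-10b doxycycline cultures and 10, 11 and 11 in the controls. The treated cultures lay on both sides of the controls, and the log2 fold change of 0.10 had a 95% confidence interval from -0.65 to 0.85 (adjusted p = 0.90). SLITRK4, compared by exact two-sided permutation of 3 against 3 cultures, whose smallest p is 0.1, was at 0.395 ± 0.135 and 0.357 ± 0.126 CPM (p = 0.7), and with the miR-10a vector at 0.600 ± 0.140 and 0.459 ± 0.204 CPM (p = 0.4). SLITRK4 was close to the floor. No change was shown for either gene, and for SLITRK3 a change within the interval is not excluded.

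**Figure D3:**
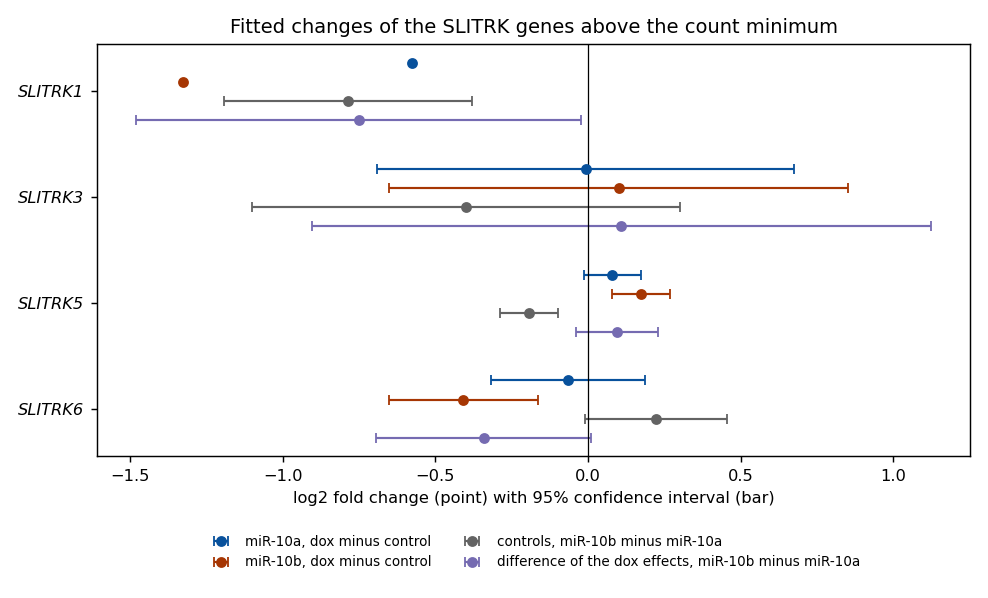
Log2 fold changes (points) with 95% confidence intervals (bars) of the 4 SLITRK genes above the count minimum, for doxycycline minus control with each vector, miR-10b control minus miR-10a control, and the difference of both doxycycline effects. SLITRK1 under doxycycline, a description, is drawn without an interval. The intervals of SLITRK3 span 0 in the 4 comparisons, and those of SLITRK5 are the narrowest.

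Averaged over both vectors, 1 of the other 5 members passed the test, beside 13.9% of all tested genes. This was SLITRK5 (log2 fold change 0.13, adjusted p = 0.0068), and SLITRK6 was just outside the threshold (-0.24, adjusted p = 0.063). The average uses the same cultures as the comparisons above. Whether the vectors differed in their effect was tested as the difference of the doxycycline changes. Of 6 members 4 could be fitted, and 0 passed with edgeR and 0 with DESeq2, beside 1.96% of all tested genes. With edgeR 1 had an unadjusted p under 0.05, beside 13.2% of all tested genes. This was SLITRK1, with a difference of -0.75 (miR-10b minus miR-10a, unadjusted p = 0.044, adjusted p = 0.35). It was computed from the same cultures as the fall by which the family was chosen. For SLITRK6 the difference was -0.34 (adjusted p = 0.40) and for SLITRK5 0.10 (adjusted p = 0.58). The changes of SLITRK5 and SLITRK6 with miR-10b are therefore not shown to be larger than those with miR-10a.

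The control cultures of the vectors also differed, without any doxycycline. Low precursor levels differed there too. MIR10A was at 0.999 CPM in the miR-10a and 0.0515 CPM in the miR-10b controls, and MIR10B at 0.814 and 3.55 CPM (means, n = 3). Their part in the differences below was not tested. Of 6 members, of which 4 could be fitted, 2 passed the test between miR-10b and miR-10a controls, beside 14.1% of all tested genes. Both were lower with the miR-10b vector, as were 6.72% of all tested genes. SLITRK1 was at 2.42 against 4.15 CPM (log2 fold change -0.79, 95% confidence interval -1.19 to -0.38, adjusted p = 0.0050). Without the miR-10b control of 18 counts it did not pass (-0.50, adjusted p = 0.089). The SLITRK1 values of these controls were also part of the doxycycline change by which the family was chosen. SLITRK5 was at 97.6 ± 1.77 against 111.5 ± 5.79 CPM (-0.19, interval -0.29 to -0.10, adjusted p = 0.0027), and it passed in all 12 fits that left out 1 culture. For both genes every miR-10b control lay below every miR-10a control, as also held for SLITRK3 and for 15.9% of all tested genes. SLITRK3 did not pass (-0.40, adjusted p = 0.53) and neither did SLITRK6, which was at 10.4 ± 1.02 against 8.89 ± 0.906 CPM (0.22, adjusted p = 0.23). The signs of the fitted values of SLITRK5 and SLITRK6 between the controls were opposite to those under doxycycline with miR-10b, and both comparisons share the miR-10b controls, so they are not independent. For SLITRK4 the controls were at 0.357 ± 0.126 and 0.459 ± 0.204 CPM (exact permutation p = 0.4, n = 3 each).

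RNA levels of marker genes of cell types were also compared between the groups. The summed level of 12 neuronal markers was 1326 to 1391 CPM under doxycycline and 1355 to 1361 CPM in controls with the miR-10a vector, and 1630 to 1654 against 1436 to 1529 CPM with the miR-10b vector. Nearly all of each sum came from NEFL and INA, on average 1027 and 591 CPM under doxycycline and 922 and 554 CPM in controls with miR-10b. The rise of the sum with miR-10b is therefore not a result apart from theirs. Of the 5 neuronal markers tested, 2 rose with miR-10b, namely NEFL (log2 fold change 0.16) and INA (0.09), both neurofilament proteins, beside 15.3% of all tested genes, and DESeq2 called 1, NEFL. The 10 synaptic protein genes summed to 345 to 362 and 355 to 389 CPM with miR-10a and to 327 to 373 and 323 to 351 CPM with miR-10b. Of 8 tested, 0 passed under doxycycline in either vector with edgeR or DESeq2, beside 1.21% and 15.3% of all tested genes with edgeR. With edgeR 1 and 2 had an unadjusted p under 0.05, beside 11.2% and 27.6% of all tested genes. Between the controls 2 of the 8 synaptic genes passed, beside 14.1% of all tested genes, and DESeq2 called 2 as well. SHANK1 (-0.36) and PCLO (-0.41) were lower with the miR-10b vector. The 9 progenitor markers summed to 11573 to 11741 against 12030 to 12168 CPM with miR-10b, where 4 of 8 tested passed, SOX3, NES and HES5 lower and MSI1 higher, beside 15.3% of all tested genes, and DESeq2 called the first 3. Between the controls 5 of the 8 passed, in edgeR and in DESeq2, beside 14.1% of all tested genes. SOX1 (-1.23) and SOX3 (-0.76) were lower with the miR-10b vector, and SOX2, NES and VIM were higher (0.13, 0.17 and 0.19). Between the controls, the 5 neural crest and mesenchyme markers were at 80.3 to 82.5 CPM with miR-10a and 226 to 248 CPM with miR-10b, and at 180 to 193 CPM under doxycycline there. Only the collagens COL1A1 and COL3A1 of that list passed the count minimum, both lower under doxycycline with miR-10b, whereas SOX10, FOXD3 and TFAP2A did not pass it. The 5 endoderm and mesoderm markers were at 4.45 to 5.95 CPM in the miR-10a controls and 10.3 to 12.4 CPM in the miR-10b controls, and TTR of that list was lower under doxycycline with miR-10b (-0.55, adjusted p = 0.0022). The 4 pluripotency markers summed to 632 to 671 and 567 to 578 CPM in the controls. Nearly all of this was LIN28B (on average 512 and 466 CPM) and DPPA4 (146 and 108 CPM). POU5F1, at 0.0534 and 0 CPM, did not pass the count minimum, and NANOG, which has 2 listed transcripts, was at 0 throughout. Both genes have several listed transcripts, so these values do not mean absence. Hindbrain markers summed to 14.8 to 16.7 and 17.9 to 21.3 CPM in the same controls. Forebrain markers summed to 23.6 to 24.9 and 22.0 to 23.9 CPM there. Under doxycycline 0 of 3 tested genes of either list passed with edgeR or DESeq2, beside 1.21% and 15.3% of all tested genes with edgeR. With edgeR 0 had an unadjusted p under 0.05, beside 11.2% and 27.6% of all tested genes. For lists this short, 0 says little. Between the controls 2 of the 3 hindbrain genes passed, beside 14.1% of all tested genes. GBX2 was higher (0.52) and HOXA2 lower (-1.08) with the miR-10b vector. Of the 3 forebrain genes 1 passed there, RAX, which was higher (1.14), and DESeq2 called 0 of them. The part of these shifts in the SLITRK values was not tested. In cultures measured in bulk, fewer cells of a type and less RNA per cell cannot be told apart.

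Genes related to the family by binding or by structure were taken as 6 lists of 56 genes, of which 39 passed the count minimum. With miR-10a 2 were lower, beside 1.21% of all tested genes past the threshold. With miR-10b 4 were higher and 3 lower, beside 15.3%, and between the controls 6 were higher and 2 lower with the miR-10b vector, beside 14.1%. Tested for a difference between the doxycycline effects, 0 of the 39 passed with edgeR, and DESeq2 called 1, FLRT2. With edgeR 5 had an unadjusted p under 0.05, beside 13.2% of all tested genes. The median log2 fold changes of 0.05, 0.05 and 0.03 stood beside medians of 0.01, 0.02 and -0.01 over all tested genes.

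Of the LAR-type phosphatases that bind SLITRK proteins, PTPRD and PTPRS were tested. Neither passed under doxycycline with miR-10a or miR-10b, beside 1.21% and 15.3% of all tested genes with edgeR, and DESeq2 called 0. With edgeR 0 had an unadjusted p under 0.05, beside 11.2% and 27.6% of all tested genes. PTPRD, the main partner of SLITRK3, was at 40.5 ± 1.21 CPM and 39.4 ± 1.97 CPM with miR-10a and at 48.3 ± 1.59 and 46.7 ± 2.78 CPM with miR-10b (SD, n = 3), and it was higher in the miR-10b than in the miR-10a controls (log2 fold change 0.24 ± 0.06 SE, adjusted p = 0.0030). Of the cytoplasmic partners of these phosphatases (liprins, TRIO and CASK), 0 of 5 tested passed under doxycycline with either vector in edgeR or DESeq2. With edgeR 0 had an unadjusted p under 0.05. Beside the shares of all tested genes just given, 0 in lists this short says little about them. PPFIBP2, a liprin-β, was higher in the miR-10b controls (0.98 ± 0.28, adjusted p = 0.015), at 1.63 against 0.824 CPM, but DESeq2 called 0 of the 5 there. Among the 8 tested of the 9 other ligands of LAR-type phosphatases, LRRC4B and LRFN4, leucine-rich repeat proteins of excitatory synapses, rose with miR-10b by log2 fold changes of 0.14 and 0.25 (adjusted p = 0.0050 and 0.0012), as SLITRK5 did. Without replicate 2 of the treated cultures LRFN4 was at 0.16 (adjusted p = 0.025). NTRK3, the TrkC neurotrophin receptor that also binds PTPRS, was higher in the miR-10b controls (0.75 ± 0.10, adjusted p = 6.4e-07), at 17.4 against 10.3 CPM.

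Of the 17 tested among 24 other neuronal leucine-rich repeat proteins, FLRT2, a guidance and adhesion protein, was lower under doxycycline with both vectors. It went from 312.6 ± 4.12 to 270.6 ± 6.56 CPM with miR-10a (log2 fold change -0.21, adjusted p = 0.00015) and from 437.5 ± 1.81 to 341.4 ± 7.65 CPM with miR-10b (-0.36, adjusted p = 1.1e-10). FLRT1, its paralogue, rose with miR-10b from 6.98 ± 1.18 to 10.0 ± 1.29 CPM (0.52, adjusted p = 0.0065). Between the controls FLRT2 (0.49) and LRRTM3 (0.98), a postsynaptic neurexin ligand, were higher with miR-10b, and LRIG1, a brake on receptor tyrosine kinases, and ELFN1 were lower (-0.22 and -0.21). SLIT1, a secreted repulsive guidance cue and one of the genes the family is named after, was lower under doxycycline with both vectors, from 1451 ± 33.9 to 1303 ± 25.1 CPM (-0.15, adjusted p = 0.0012) and from 1861 ± 28.9 to 1678 ± 31.0 CPM (-0.15, adjusted p = 0.00020). Neurexins and neuroligins are the adhesion pair that works beside SLITRK proteins at synapses. With miR-10a 0 of 6 tested passed in edgeR or DESeq2, beside 1.21% of all tested genes with edgeR. With edgeR 1 had an unadjusted p under 0.05, beside 11.2% of all tested genes. With miR-10b 2 of the 6 passed, beside 15.3% of all tested genes. NLGN2 of inhibitory synapses rose (0.18, adjusted p = 0.00058) and NLGN1 of excitatory synapses fell (-0.16, adjusted p = 0.026). Without that replicate 2, NLGN1 did not pass (-0.14, adjusted p = 0.075), and the other 6 genes of the lists past the threshold with miR-10b remained so.

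**Figure D4:**
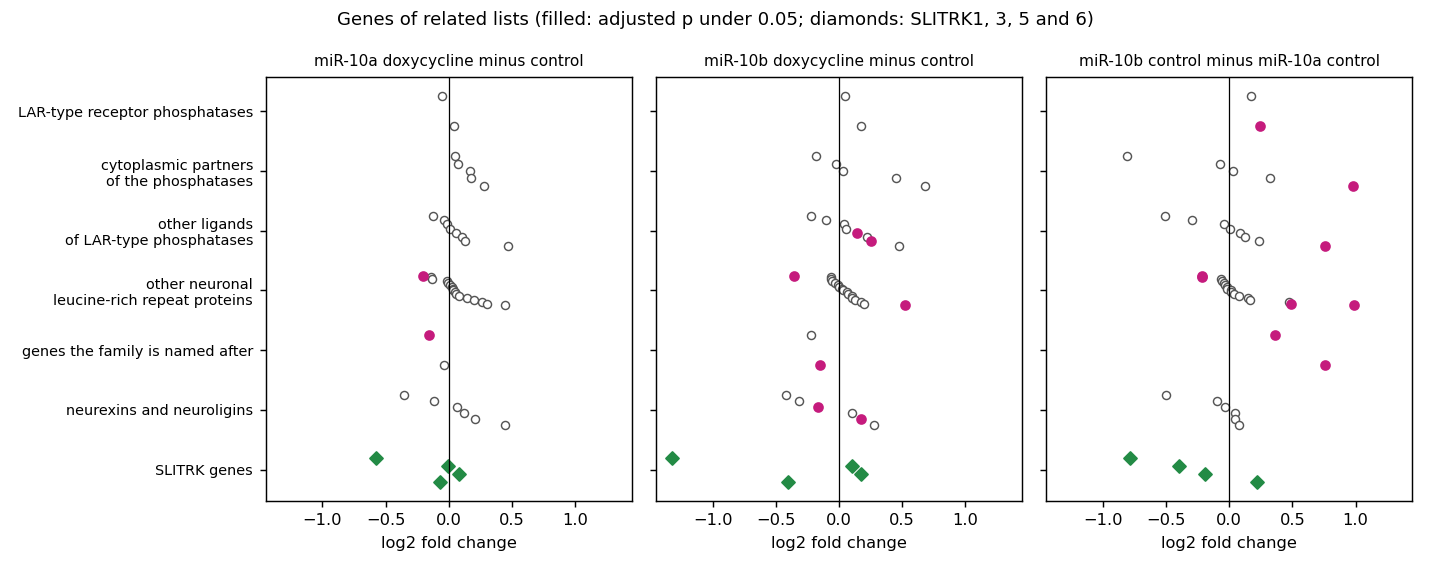
Log2 fold changes of the tested genes in 6 related lists and of the 4 fitted SLITRK genes (diamonds) in 3 comparisons, with genes at an adjusted p under 0.05 filled. The filled points number 2 distinct genes with miR-10a, 7 with miR-10b and 8 between the controls.

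Over the 12 cultures, the tested genes whose log2 CPM ran most like that of a member were found by Pearson's r, as a description without a test. The cultures share their groups and total counts, and each name is the extreme of 11451 genes. For SLITRK1 they were DKK1, a secreted WNT inhibitor (r = 0.98), SF3A3, a splicing factor subunit (0.96), and LPCAT1, an enzyme of phospholipid remodelling (0.95). For SLITRK5, 2 of its 3 were the transcription factor SOX7 (0.90) and GREB1L (0.90). LPCAT1 and SOX7 were no longer among the 3 most alike with a pseudocount of 2 in place of 0.5. For SLITRK6 they were GNG11, a G protein subunit (0.95), BAMBI, a decoy receptor of the TGF-β family (0.88), and KDELC1 (0.87). For SLITRK3, whose counts were low, UBE2E4P, PPP1CB and WDR70 led (0.91, 0.91 and 0.88).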

How the data were processed

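RNA of the 12 cultures was sequenced as single-end reads of 50 bases. The study's methods name the RNeasy kit and NuGEN libraries, the labels miRNeasy and Illumina kits. The authors mapped the reads to hg19 and deposited raw counts per RefSeq transcript; the labels' processing notes name STAR, Subread and featureCounts. Whether strand was used is not given in the sources used here. Transcript lengths came from the same deposited files. Of 51799 rows per file, 3698 repeats of a transcript were dropped, and the transcript with the highest mean count stood for its gene. Genes with 1 transcript held 92.84% of the counts, so that reads shared by transcripts appear to be left out.

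Counts were tested in edgeR 4.0.16 (R 4.3.3; glmQLFit and glmQLFTest, 4 group means, total count as library size, genes with a mean above 10 counts, Benjamini-Hochberg threshold 0.05), with code tested on simulated data. Genes below the minimum were compared by exact permutation (scipy 1.17.1). Alternatives were TMM, DESeq2 1.42.0, other count minimums, the replicate block, separate fits, summed transcripts, counts thinned to equal totals and leaving out each culture. Likeness used log2(CPM + 0.5). All 6 members were named. Genes of the lists were named when past the threshold in a within-vector or control comparison, up to 4 per list by size of change, and the 3 genes most alike were named for each fitted member. One of these genes and 1 marker gene are not reported here, and the marker was left out of its list. ELFN1 and single marker genes were named after their values were seen. The members and lists were chosen with earlier results of these data known. Sequences came from RefSeq (GRCh38.p14) and GENCODE 44 on GRCh37; the RefSeq table matched 1 of the 2 mature strands, hsa-miR-10a-5p, while hsa-miR-10b-5p was named only.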

Additional observations from a re-analysis of the deposited data

How the results depend on the processing

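TMM, DESeq2, both other count minimums, the replicate block, separate fits, summed transcripts and thinned counts left the members past the threshold as they were in each comparison for which they were run (separate fits only within each vector and between the controls), except that thinning raised the count of SLITRK2 to SLITRK6 in the average of both vectors from 1 to 2, with SLITRK6 added at -0.27 (adjusted p = 0.0498). Leaving out 1 culture gave 0 to 2 members with miR-10b, 1 to 2 for the average, 1 to 2 between the controls, and 0 to 0 with miR-10a and for the difference of the vectors. SLITRK5 with miR-10b ranged from 0.14 to 0.22 and SLITRK6 from -0.48 to -0.34. The sign of SLITRK3 was not stable, from -0.36 to 0.22 with miR-10a, -0.45 to 0.38 with miR-10b, -0.23 to 0.19 for the average and -0.44 to 0.46 for the difference, and SLITRK6 with miR-10a went from -0.13 to 0.023; none of these passed the threshold in any such fit. The cause was not tested. Same-numbered doxycycline and control cultures did not deviate together (r from -0.032 to 0.0082 over 6 pairs), so the numbers pair nothing here; the replicate block gave 0, 2, 1, 0 and 2 members in the comparisons in the order of the report, and moved the genes called with miR-10b from 1756 to 1826. Genes called with miR-10a moved from 139 to 272 in a separate fit, and those for the difference of the vectors from 224 to 343 with no count minimum; leaving out 1 culture gave 78 to 268 and 140 to 340. The share of calls that were higher was 38.8% with miR-10a against 28.0% with DESeq2, 55.2% against 43.8% with TMM and 38.3% with DESeq2 for the average, and 29.5% against 13.3% with DESeq2 for the difference. The length of the stretch as the denominator for SLITRK1 was chosen after seeing the data. Summing transcripts raised SLITRK4 to between 0.557 and 0.747 CPM over the groups. Depth limits SLITRK3 and SLITRK4, which had at most 18 counts.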
